A study of Mus musculus with 30 samples.

Results

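The genes described here are 10 that write, regulate or remove methylation of histone H3 at lysine 27, chosen by symbol from the 46078 genes of the count table: Ezh1, Ezh2, Eed, Suz12, Jarid2, Mtf2, Phf1, Phf19, Kdm6a and Kdm6b. All 10 were found, and their RNA was measured by RNA-seq in C2C12 cells, a line of mouse myoblasts that divide in rich medium and can differentiate into muscle fibres. The cells were in the growing state in 20% serum, with no genetic change or drug named in the labels, and were stained with the DNA dye Hoechst and sorted into a G1, an S and a G2/M fraction. Each fraction has 2 columns of fragment counts, 6 in all, and the other 24 samples of the series, which are ChIP-seq libraries and inputs, are not analysed here. The series as a whole concerns chromatin and binding of the muscle factor MyoD during the cell cycle.

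Polycomb repressive complex 2 (PRC2) places methyl groups on lysine 27 of histone H3, and its end product, H3K27me3, marks silent developmental genes. The catalytic subunit is EZH2 or its relative EZH1, which works only together with EED, the reader of existing H3K27me3, and the scaffold SUZ12. Accessory proteins direct the complex to chromatin: MTF2, PHF1 and PHF19, the Polycomb-like proteins, form one class of PRC2, and JARID2 with AEBP2 the other. The demethylases KDM6A (UTX) and KDM6B (JMJD3) remove the mark. In muscle, EZH2 is known to hold differentiation genes silent in dividing myoblasts and to decline as they differentiate, and the mark must be restored on new nucleosomes after each round of replication.

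RefSeq promoter windows (build GRCm38.p6) were found for 9 of the 10 genes, 11 windows in all, each from 250 bases before to 50 bases after an annotated start. They were searched on both strands for the E2F letters TTTCCCGC, TTTCGCGC, TTTGCCGC and TTTGGCGC, for the letters TTTGAA and TTTAAA of the cell cycle genes homology region (CHR), and for CCAAT. E2F letters were in 3 of the 11 windows, those of Ezh2, Suz12 and Phf19, and in 2.26% of all 32851 windows of the table. CHR letters were in 5 windows, those of Eed, Suz12, Jarid2 and Mtf2, against 27.6% of all windows. CCAAT was in 6 windows, those of Ezh2, Eed, Suz12, Jarid2 and Mtf2, against 37.4%. The 3 windows with E2F letters are shown beside 1 of the 2 windows of Jarid2, the member with the largest difference between phases, 5′ to 3′ on the gene's strand, with E2F and CHR letters in capitals and CCAAT left in lower case. The stretches lie at chr6:47595011-47595183 (minus strand) for Ezh2, chr11:79992856-79993125 (plus) for Suz12, chr2:34914007-34914226 (minus) for Phf19 and chr13:44731021-44731290 (plus) for Jarid2, and hold at most 20 bases of exon.
Ezh2: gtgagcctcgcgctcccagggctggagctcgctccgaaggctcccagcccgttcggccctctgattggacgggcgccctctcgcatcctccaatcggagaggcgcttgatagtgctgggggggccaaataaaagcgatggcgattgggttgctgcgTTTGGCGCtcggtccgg
Suz12: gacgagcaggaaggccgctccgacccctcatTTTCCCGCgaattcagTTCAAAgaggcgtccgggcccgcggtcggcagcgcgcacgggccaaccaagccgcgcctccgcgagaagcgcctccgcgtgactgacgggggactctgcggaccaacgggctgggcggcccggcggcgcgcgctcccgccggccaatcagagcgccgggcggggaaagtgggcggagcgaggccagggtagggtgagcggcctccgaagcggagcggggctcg
Phf19: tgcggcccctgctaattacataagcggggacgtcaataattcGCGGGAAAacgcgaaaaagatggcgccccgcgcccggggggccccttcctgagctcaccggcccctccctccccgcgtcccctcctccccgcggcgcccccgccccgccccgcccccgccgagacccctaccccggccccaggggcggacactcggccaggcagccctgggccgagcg
Jarid2: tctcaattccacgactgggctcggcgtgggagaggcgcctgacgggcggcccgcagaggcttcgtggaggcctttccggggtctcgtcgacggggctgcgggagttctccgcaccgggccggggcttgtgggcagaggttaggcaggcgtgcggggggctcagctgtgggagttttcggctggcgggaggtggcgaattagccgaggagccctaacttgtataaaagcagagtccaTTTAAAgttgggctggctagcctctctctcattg
Positions count from 1 at the annotated RefSeq start, with -1 just before it. The E2F letters begin at 4 in Ezh2, -219 in Suz12 and -208 in Phf19, and the CHR letters of this Jarid2 window at -14. The counted gene models of Ezh2, Phf19 and Jarid2 begin upstream of these starts, at 47595341, 34914026 and 44729474. The other Jarid2 window, not shown, has neither E2F nor CHR letters. A match of letters is a description of the sequence and not of binding, and nothing follows from a window without one.

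Columns held 16109055 to 18103769 fragments each. Both columns of a phase have replicate numbers but no named cultures of their own, and they lie close to what counting alone gives: chi-square divided by degrees of freedom came to 1.00 for G1, 1.03 for S and 1.15 for the G2/M pair (1.04 leaving out the gene model Gm17082). Over 11280 to 11737 genes, the chi-square test still found a departure from counting noise in S (p = 0.0109) and G2/M (p = 3.11e-28), and none in G1 (p = 0.450). Since every value was under the limit of 1.5, each pair was summed and counted as 1 library. There is therefore no replicate check of any difference between phases and no test, and every interval below is a 95% interval for counting error only. Because only the titles of the S columns name a lot, a lot effect and a phase effect cannot be told apart wherever S is compared. Levels are in CPM, a count of fragments scaled to library size, here with TMM factors. In such bulk samples, fewer cells with a transcript and less of it per cell cannot be told apart. The fractions differed in known cell cycle genes: Ccnb1, the cyclin of mitotic entry, stood at 74.3, 243 and 390.0 CPM in G1, S and G2/M, and Cdc6, which helps load the replicative helicase, at 140.3, 11.2 and 24.2 CPM. All 4 G2/M genes examined were highest in G2/M and all 4 G1/S genes highest in G1. Of 5 myoblast markers, Des, Cdh15, Myf5 and Vcam1 stood at 35.7 to 311 CPM, and Myod1, the factor the series is about, at only 5.73 to 6.64 CPM. The 5 markers of differentiated muscle summed to 1.93 to 10.4 CPM, with Myh4 at 0 everywhere, and of 5 markers of other cell types 4 were at 0 everywhere and Pecam1 reached 0.799 CPM in G2/M.

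9 members had their highest level in the G2/M library: all 10 genes except Mtf2. Among the 9073 genes of the table that reached 10 CPM in some phase after TMM scaling, 33.2% were highest in G2/M. Levels were higher in S than in G1 and higher again in G2/M for 5 members, Ezh1, Eed, Jarid2, Phf19 and Kdm6b, against 19.5% of those genes. Ezh1 rests on 1 column here: without column 1 of G2/M, the counts were 8 highest in G2/M and 4 in that order. The 4 members Ezh2, Suz12, Phf1 and Kdm6a were lowest in S, and Mtf2 was lowest in G2/M. The shares of all genes lowest in S or in G2/M were not taken. Counting intervals for S against G1 included 0 for Phf1, Phf19 and Kdm6a. So did those for G2/M against S for Ezh1 and Mtf2, and for G2/M against G1 for Ezh2. For these genes counting error alone leaves the order of those phases open.

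**Figure D1:**
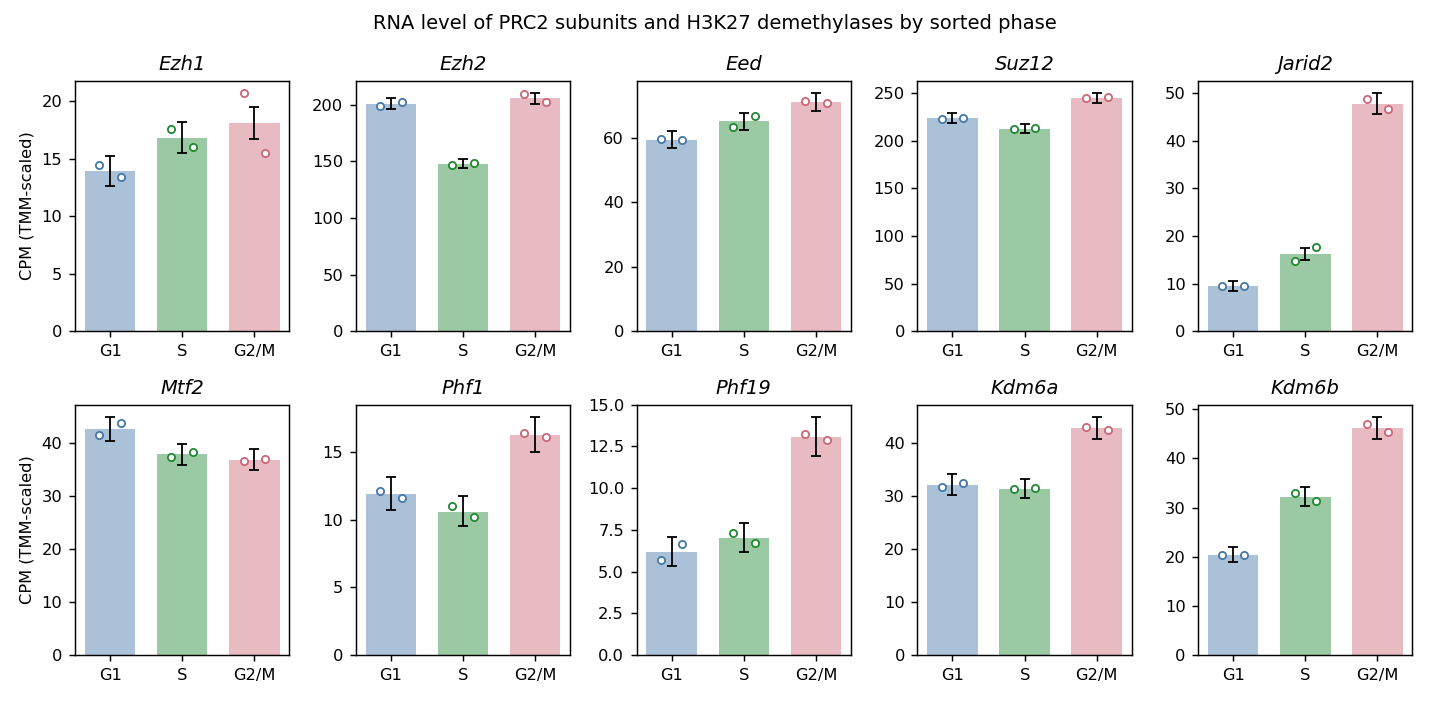
RNA level of each of the 10 genes in CPM (TMM-scaled; vertical axis from 0, with its own scale per gene) in the G1, S and G2/M libraries. Bars are the summed library, black lines its 95% counting interval and open circles the 2 columns; Jarid2 reached 47.7 CPM in G2/M against 9.48 CPM in G1, and the columns stand apart most for Ezh1 in G2/M.

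A gene was called when it differed at least 2-fold and reached 10 CPM in 1 of the 2 libraries compared. Between G2/M and G1 the call was met by 3 of 10 members, Jarid2, Kdm6b and Phf19, all higher in G2/M, where 10% of 8850 genes were called higher and 9.82% lower. Between G2/M and S it was met by Jarid2 alone, again higher in G2/M, against 7.08% of 8756 genes called higher and 6.65% lower. Between S and G1 no member was called, against 8.67% of 8775 genes called higher in S and 8.52% lower. At 1.5-fold the members called higher were 2 in S against G1 (Jarid2 and Kdm6b; 18.6% of all genes), 3 in G2/M against S (Jarid2, Phf1 and Phf19; 16% of genes) and 3 in G2/M against G1 (20.2%). A minimum of 20 CPM left 2 higher in G2/M than in G1, against 7.97% of genes. Phf19 passed the 10 CPM minimum only through G2/M, and Jarid2 passed it in G2/M against G1 only through G2/M. Smaller differences were judged by whether the counting interval excluded 0. For G2/M against G1 it lay above 0 in 8 members and below it in 1, where 44.2% and 44.8% of all genes did. For G2/M against S it lay above 0 in 8 members and below it in 0, against 43.7% and 43.1% of genes, and for S against G1 in 4 and 3, against 43.7% and 44.5%. The median log2 ratio of the members was 0.40 for G2/M against G1, 0.46 for G2/M against S and -0.03 for the 9 measured in S against G1, where the medians of all genes tested lay between -0.004 and 0.004.

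Spread between these libraries depended on level, which sets the scale for each member. The middle 95% of log2 ratios of G2/M against G1 ran from -0.87 to 1.02 among genes over 200 CPM, from -1.60 to 1.69 at 20 to 50 CPM and from -2.20 to 2.42 at 10 to 20 CPM. Phf19 has a mean between 5 and 10 CPM, and 53.4% of the 1059 genes in that range were 2-fold or more apart. Against this scale only Jarid2 among the 10 genes lay outside the middle 95% of genes of its level, in both comparisons with G2/M. The other 9 genes lay inside it in all 3 comparisons. The place of Jarid2 depends on its class, since its mean of 24.5 CPM is raised by its G2/M level of 47.7 CPM. At 10 to 20 CPM, the class that holds its S level, the middle 95% reached 2.42 for G2/M against G1. For G2/M against S it reached 2.07 there. The Jarid2 ratios, 2.33 and 1.56, would lie inside both ranges.

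**Figure D2:**
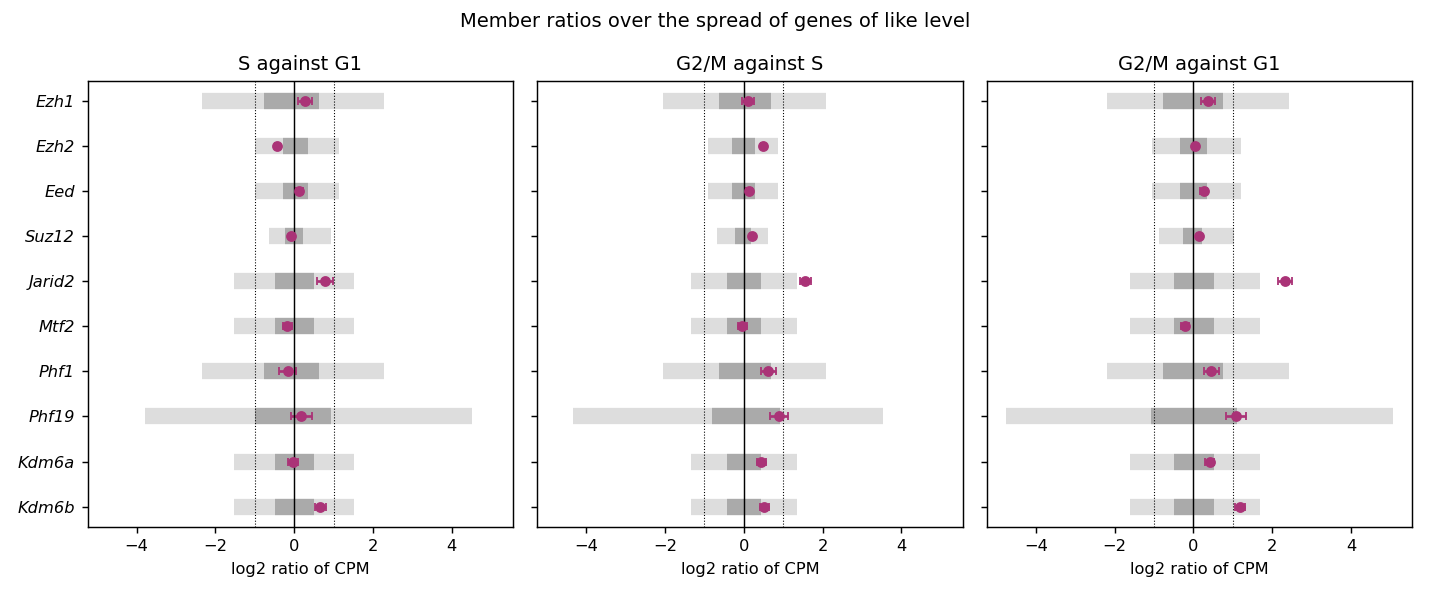
Log2 ratio of CPM (horizontal axis) of each gene in the 3 comparisons, as points with 95% counting intervals. Light bars span the middle 95% and dark bars the middle 50% of all genes of like mean level, and dotted lines mark 2-fold. Only Jarid2, at 1.56 for G2/M against S and 2.33 for G2/M against G1, lies outside the light bar. Its bars are those of 20 to 50 CPM, a class that its own G2/M level helps to set.

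Ezh2, the main methyltransferase of dividing cells, was lower in S than in either other fraction and nearly equal in G1 and G2/M. It lies on chromosome 6 from 47530274 to 47595341 (GRCm38, minus strand). Its columns stood at 199 and 203 CPM in G1, 147 and 149 CPM in S and 209 and 202 CPM in G2/M. The S level was 1.36-fold below G1, which is -0.44 on the log2 scale (interval -0.49 to -0.39). G2/M was 1.39-fold above S (0.48, interval 0.42 to 0.53), while G2/M against G1 was 0.03, with an interval of -0.01 to 0.08 that includes 0. These ratios lay outside the middle 50% of genes at 50 to 200 CPM in both comparisons with S, and inside the middle 95%.

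Ezh1, the related methyltransferase that is prominent in non-dividing tissues, was the scarcer of the pair throughout. Its gene lies on chromosome 11 from 101191115 to 101226463. The columns gave 14.4 and 13.4 CPM in G1, 17.6 and 16.03 CPM in S and 20.7 and 15.5 CPM in G2/M. The G2/M columns, with 373 and 284 fragments, differed by more than counting gives (exact binomial test, two-sided, p = 0.00024, 0.00721 after Benjamini-Hochberg adjustment over 30 such pairs), the only one of the 30 pairs with an adjusted p under 0.05. G2/M against G1 was 1.30-fold (0.38, interval 0.20 to 0.56), a log2 ratio that became 0.15 without column 1 of G2/M and 0.57 without column 2. The ratio of G2/M against S, 0.11, became -0.12 and 0.30 in the same order.

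Eed and Suz12, the obligate partners of the catalytic subunit, differed little between phases. Eed lies on chromosome 7 from 89954656 to 89980983. It gave 59.5 and 59.3 CPM in G1, 63.3 and 66.8 CPM in S and 71.5 and 70.8 CPM in G2/M. From G1 to G2/M the difference was 1.20-fold (0.26, interval 0.17 to 0.35). Suz12, on chromosome 11 from 79993106 to 80034123, was the member of highest level, at 223 and 224 CPM in G1, 212 and 214 CPM in S and 245 and 246 CPM in G2/M. Its S library was 1.05-fold below G1 and its G2/M library 1.15-fold above S (0.20, interval 0.16 to 0.25). Neither gene was more than 1.20-fold apart in any comparison. Of the exon bases of Eed, 235 are shared with E230029C05Rik on the opposite strand, which was given 0 fragments.

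Jarid2, which recruits PRC2 and helps it bind nucleosomes, differed more between phases than any other member. It lies on chromosome 13 from 44729474 to 44921643. The columns stood at 9.47 and 9.49 CPM in G1, 14.7 and 17.6 CPM in S and 48.8 and 46.7 CPM in G2/M. Behind these levels were 304, 578 and 1733 fragments in the summed libraries. G2/M was 5.04-fold above G1 (2.33, interval 2.16 to 2.51) and 2.96-fold above S (1.56, interval 1.43 to 1.70), while S was 1.70-fold above G1 (0.77, interval 0.57 to 0.97). Among genes with means between 20 and 50 CPM, like Jarid2, 10.2% were called higher in G2/M than in G1 and 6.46% higher than in S. At 10 to 20 CPM these shares were 18.3% and 17.0%.

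Exon length moved with the S against G1 ratio over the whole table. Genes averaging 50 CPM or more were divided into 4 classes of equal size by exon length. The median log2 ratio of S against G1 was -0.20 in the shortest class, up to 2958 exon bases, and 0.26 in the longest, over 7130.5 bases. For G2/M against G1 these medians were -0.13 and 0.15, and for G2/M against S 0.06 and -0.07. By their own lengths Jarid2, Ezh1 and Kdm6a fall in the longest class and Eed and Phf1 to the shortest. Ezh2 lies in the third class by length, whose median of 0.09 for S against G1 has the opposite sign to its own ratio. The part of length in the members' ratios was not tested.

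The Polycomb-like subunits did not share a pattern. Mtf2, on chromosome 5 from 108065674 to 108109004, was highest in G1, at 41.5 and 43.7 CPM, with 37.3 and 38.2 CPM in S and 36.6 and 36.9 CPM in G2/M. Its G2/M library was 1.16-fold below G1 (-0.21, interval -0.32 to -0.10), the only member with a counting interval below 0 there. Of its 5698 exon bases, 395 are shared with Tmed5 on the opposite strand, so fragments there cannot be told apart. Tmed5 was given 1825, 3736 and 3243 fragments in G1, S and G2/M, and any part of the overlap in the Mtf2 ratios was not tested. Ezh2, Suz12 and Kdm6b likewise share 174, 178 and 286 exon bases with genes on the opposite strand.

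Phf1 lies on chromosome 17 from 26933127 to 26937890. It stood at 12.2 and 11.7 CPM in G1, 11.03 and 10.2 CPM in S and 16.4 and 16.1 CPM in G2/M. The G2/M level was 1.53-fold above S (0.62, interval 0.43 to 0.81). Phf19, on chromosome 2 from 34893757 to 34914026, had the lowest CPM of the 10 genes, at 5.71 and 6.64 in G1, 7.32 and 6.71 in S and 13.2 and 12.9 in G2/M. The G1 and S columns of Phf19 were close, with an interval of -0.09 to 0.46 that includes 0, and its G2/M library was 2.12-fold above G1 (1.08, interval 0.84 to 1.33) and 1.86-fold above S. Its call against G1 was lost without column 1 of G1.

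Both demethylase genes were highest in G2/M, by different routes. Kdm6b, an inducible demethylase, lies on chromosome 11 from 69398508 to 69413675. It gave 20.4 and 20.3 CPM in G1, 33.0 and 31.4 CPM in S and 47.1 and 45.5 CPM in G2/M. G2/M was 2.27-fold above G1 (1.18, interval 1.05 to 1.32), S was 1.58-fold above G1 (0.66, interval 0.52 to 0.80) and G2/M 1.44-fold above S. Kdm6a, the X-linked demethylase that works within KMT2C and KMT2D complexes, on chromosome X from 18162575 to 18279936, was level between G1 and S, at 31.7 and 32.4 CPM against 31.4 and 31.5 CPM. In G2/M it stood at 43.1 and 42.6 CPM, 1.36-fold above S (0.45, interval 0.34 to 0.56) and 1.34-fold above G1. The Kdm6b ratio of G2/M against G1 lay outside the middle 50% and inside the middle 95% of genes at 20 to 50 CPM.

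To compare genes with each other, CPM was divided by kilobases of exon (FPKM). These are all annotated exon bases of a gene. A gene of which only some exons are transcribed would rank too low, which the counting intervals do not cover. Suz12 was the highest member in every phase, at 45.2 FPKM in G1, 43.0 FPKM in S and 49.6 FPKM in G2/M. The next places went to Ezh2 and Eed, in that order in G1 (32.4 and 26.8 FPKM), reversed in S (23.9 and 29.3 FPKM) and with overlapping counting intervals in G2/M (33.2 and 32.1 FPKM). The 7 other members lay below 8 FPKM. In G1 Jarid2 and Phf19 were lowest, at 0.976 and 1.23 FPKM with overlapping intervals. In G2/M Jarid2 stood at 4.91 FPKM, next to Kdm6a at 5.25 FPKM with an overlapping interval, and Phf19 and Ezh1, at 2.59 and 2.43 FPKM, closed the order without a difference beyond their intervals. Phf1, Kdm6b and Mtf2 also could not be ordered in G2/M, at 6.70, 6.65 and 6.45 FPKM.

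**Figure D3:**
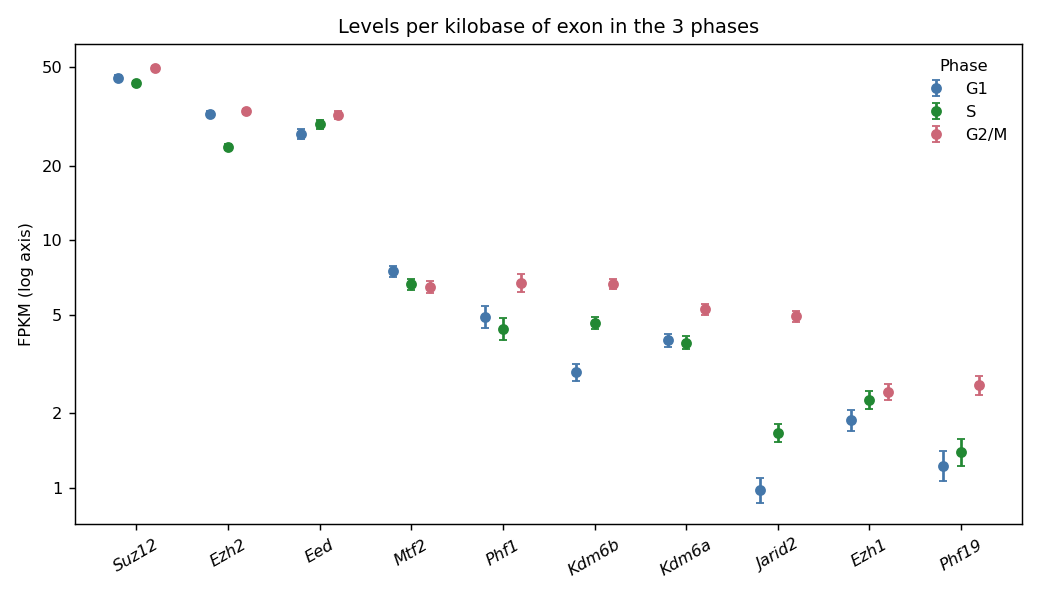
FPKM (log axis) of the 10 genes in G1, S and G2/M, with 95% counting intervals, ordered by mean level. Suz12, Ezh2 and Eed lie between 23.9 and 49.6 FPKM and all other genes below 8, and Jarid2 spans 0.976 to 4.91 FPKM.

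Ratios between members within a phase followed from these levels and rest on the same exon lengths, which their intervals do not cover. Ezh2 exceeded Ezh1 per length 17.3-fold in G1 (interval 15.8 to 19.1), 10.6-fold in S (9.72 to 11.5) and 13.6-fold in G2/M (12.6 to 14.8), so Ezh2 RNA predominated in every fraction and least in S. Suz12 stood 1.40-fold above Ezh2 in G1, 1.80-fold in S and 1.49-fold in G2/M. Kdm6b was below Kdm6a in G1, at 0.744 of its level (0.674 to 0.822), and above it in S, at 1.20 (1.11 to 1.31), and in G2/M, at 1.27 (1.18 to 1.36). Mtf2 was 7.66-fold above Jarid2 in G1, 3.99-fold in S and 1.31-fold in G2/M. Aebp2, the DNA-binding partner of Jarid2 in the same class of PRC2, exceeded Jarid2 26.3-fold in G1, 23.1-fold in S and 5.61-fold in G2/M.

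For Ezh2, whose dip in S defines its pattern, the 4 nearest of 4232 named genes averaging 50 CPM or more were Peg10, Akap12, Bcap31 and S100a10. Likeness was the distance between the log2 ratios of S against G1 and G2/M against S, over 3 libraries, and ran from 0.004 for Peg10 to 0.018 for S100a10. Peg10 stood at 217, 160.2 and 223 CPM in G1, S and G2/M. In all, 70 genes had both ratios within 0.1 of those of Ezh2, so a pattern over 3 libraries is shared by many genes.

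The remaining PRC2 genes formed a list of 7, of which 6 were measured. None was called between G2/M and S, where 7.08% of all genes were called higher and 6.65% lower, and 1 was called higher and 1 lower between G2/M and G1, against 10% and 9.82%. Called higher in S than in G1 were 2, against 8.67%. Their medians were -0.30, -0.05 and 0.28 in that order. The same shares over all genes apply to the lists that follow. Epop, which links PRC2 to elongin, was 2.52-fold lower in G2/M than in G1, at 22.1 CPM against 55.8 CPM (-1.34, interval -1.46 to -1.21). Lcorl, one of the PALI subunits of the Polycomb-like class of PRC2, stood at 24.7 CPM in G2/M against 9.17 CPM in G1, 2.69-fold higher, and its relative Lcor 2.23-fold higher in S than in G1. Both passed the 10 CPM minimum only through the library where they were higher. Aebp2 was not called, at 208, 312 and 223 CPM in G1, S and G2/M, its highest level in S. Ezhip, an inhibitor of PRC2, had 0 fragments in every library, and the floor of 3 fragments is 0.0935 CPM in G1.

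PRC1, the complex that binds H3K27me3 and ubiquitinates histone H2A, was measured through 18 to 20 of 22 genes. Between G2/M and G1, 2 were called higher and 1 lower around a median of 0.37. Pcgf2 was 2.33-fold and Yaf2 2.26-fold higher in G2/M, and Kdm2b, which brings a PRC1 variant to CpG islands, 3.98-fold lower, at 4.49 CPM against 17.9 CPM. Between G2/M and S, Pcgf2 (2.102-fold) and Pcgf6 (3.42-fold) were higher and Kdm2b lower (2.40-fold), with a median of 0.07. Between S and G1, Cbx2, a reader of H3K27me3, was 2.27-fold and Pcgf6 3.96-fold lower in S, none was called higher and the median was 0.27. Kdm2b, Pcgf6 and Cbx2 had means of 10 to 20 CPM and passed the minimum only through the higher library. At that level 34.8% of genes were called in either direction when S was set against G1, 31.8% for G2/M against S and 38.0% for G2/M against G1.

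Among 7 measured genes of the H2A deubiquitinase PR-DUB, Asxl1, its cofactor subunit, was 2.14-fold higher in S than in G1 and 3.46-fold higher in G2/M than in G1, at 33.0, 70.6 and 114 CPM. Foxk1, a DNA-binding partner, was 2.17-fold lower in G2/M than in S. No other of these genes was called, and the medians were 0.48 for S against G1, -0.28 for G2/M against S and -0.17 for G2/M against G1. Of 10 measured partners of the demethylases and H3K27 acetyltransferases, the coactivator Ncoa6 was called higher in G2/M than in G1 (2.06-fold), and Paxip1, a shared subunit of the KMT2C and KMT2D complexes, lower in G2/M than in G1 (2.55-fold) and than in S (2.60-fold). None was called between S and G1, and the medians were 0.36 for S against G1, -0.15 for G2/M against S and 0.08 for G2/M against G1. Uty, the Y-linked relative of Kdm6a, and Pagr1a had 0 fragments in every library.

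**Figure D4:**
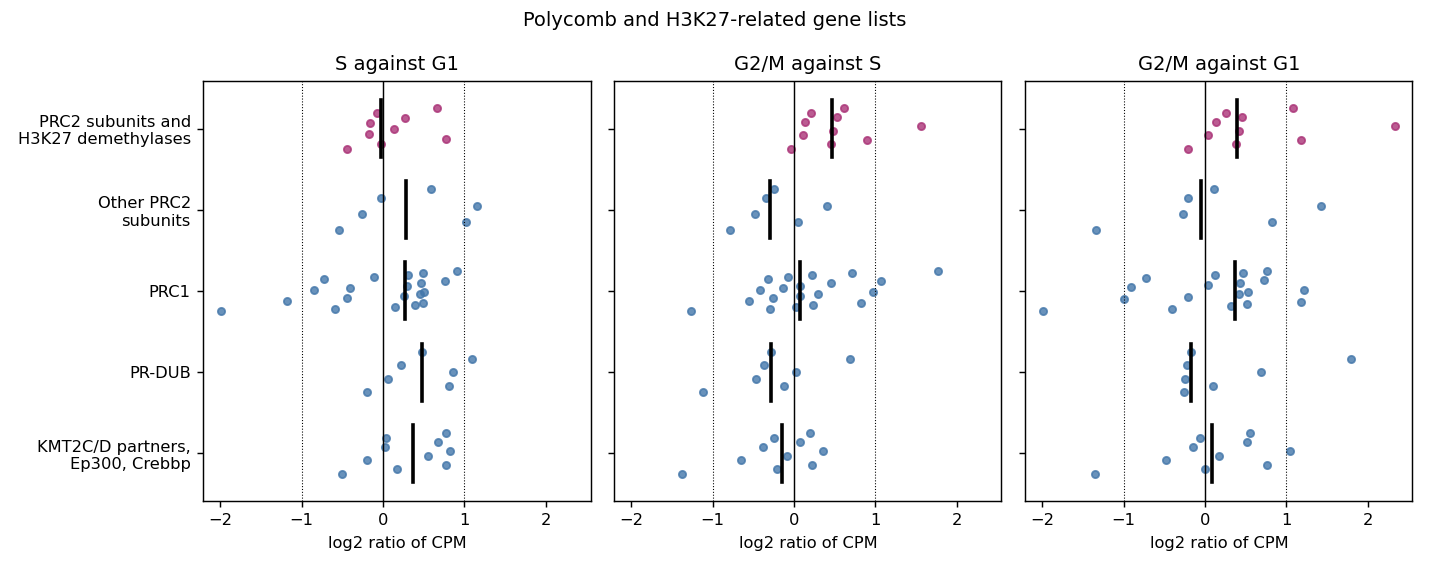
Log2 ratio of CPM (horizontal axis) of each measured gene in 5 lists for the 3 comparisons, with a black line at each list's median and dotted lines at 2-fold. The 10 PRC2 subunits and demethylases have medians of 0.46 and 0.40 in the comparisons with G2/M, and the other PRC2 subunits -0.30 and -0.05.

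Genes known as PRC2 targets in muscle cells or at the Cdkn2a locus were mostly low or not detected in these libraries. Of 14, 6 had 0 fragments in every library: Cdkn2a and Cdkn2b, which encode inhibitors of cyclin-dependent kinases, Pax3, the myosin genes Myh2 and Myh4, and Hoxd9. Of all 46078 genes, 14707 had a fragment in some library and 9073 reached 10 CPM, so most genes of the table were also at 0 everywhere. Why the 6 listed genes have no fragments, and any part of PRC2 in it, was not tested. Only the homeobox genes Hoxa9, Hoxa10 and Hoxc10 reached 10 CPM. Hoxa10 stood at 48.1, 58.1 and 25.8 CPM in G1, S and G2/M, 2.25-fold lower in G2/M than in S (-1.17, interval -1.28 to -1.06). Hoxa9 and Hoxc10 were not called in any comparison, at 34.8 to 45.5 CPM and 43.8 to 66.3 CPM.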

How the data were processed

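The values are counts of fragments per gene that the authors deposited, made, per the file headers, with featureCounts 1.5.0-p3 on read pairs over exons of Ensembl's GRCm38 gene models. Strand is not set in that command, so antisense overlaps cannot be separated. Exon bases per gene, the other column used, were deposited by the authors in the same table. HISAT2 2.1.0 and SAMtools 1.6 are named, with no role, per the submitters' processing notes. Reads had 101 cycles per end, per the labels' protocols.

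Identifiers were matched to symbols for 45143 of 46078 genes. The members and gene lists were chosen with earlier results of these data known. The 2 columns of a phase were compared by chi-square, using genes whose pair summed to 10 fragments or more, and, staying under 1.5 over the degrees of freedom, summed. TMM factors (edgeR 4.0.16, R 4.3.3) came from 9067 genes at 10 CPM or more in some phase before that scaling and were 0.990, 0.999 and 1.01 (G1, S, G2/M). Ratios have exact binomial (Clopper-Pearson) intervals and levels exact Poisson intervals. Fragments are not independent molecules where PCR copied them, so intervals and floors (3 fragments) cover counting error only. In libraries simulated with counting noise only, 200 of 8339 genes were changed by 1.5 or 2 on the log2 scale, either way. Of these, 198 to 200 were called in the right direction, and 0 others. As every set change lay beyond 2-fold and the libraries had no other spread, this checks the calculation and not the calls above. All 10 members are described, and from each further list and comparison at most 3 called genes per direction, those of highest level. The level class of 5 to 10 CPM, the classes by exon length and the counts of genes by order of the phases were added after the values were seen. A gene near Ezh2 in pattern is not reported here. Alternatives were DESeq2 1.42.0 size factors, no scaling, no filter, each column left out, and other call limits.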

Additional observations from a re-analysis of the deposited data

How the results depend on the processing

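No paired analysis was possible because the 2 columns of a phase were counted as 1 library and the ratios come from no test. Under DESeq2 size factors, total library size and TMM without a filter, all 90 member ratios stayed within their counting intervals, with shifts of at most 0.03 on the log2 scale, and every count of members stayed as it was. With each column left out in turn, 176 of 180 ratios stayed within their intervals, and the largest shift, 0.23, was that of Ezh1 for G2/M against G1. Counts then ranged from 2 to 3 members called higher in G2/M than in G1, from 8 to 9 highest in G2/M and from 4 to 5 higher in S than in G1 and higher again in G2/M; the other counts did not change. At 1.5-fold, 2 members (Jarid2 and Kdm6b) were called higher in S than in G1, where 18.6% of all genes were, and 3 (Jarid2, Phf1 and Phf19) higher in G2/M than in S, where 16% were. With a minimum of 20 CPM, 2 members were called higher in G2/M than in G1, against 7.97% of genes. No called member ratio changed sign under any of these settings. Of the 180 ratios with a column left out, those between phases that lost no column could move only through scaling. The others were judged against intervals that rest in part on the same fragments. Their agreement was therefore largely given in advance. What depth and counting cannot show is how libraries from separate cultures would differ.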

Other observations

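The 2 genes below stayed under the 10 CPM minimum and were picked after their values were seen. Pcgf1, a PRC1 subunit, was given 272 fragments in the G1 library, 311 in the S library and 16 in the G2/M library. Its log2 ratio of G2/M against S was -4.30, near the lower end of the middle 95% of genes averaging 5 to 10 CPM, which ran from -4.33 to 3.54. Acta1, skeletal muscle actin, was given 216, 5 and 336 fragments in the same order. Its log2 ratio was -5.59 for S against G1 and 6.05 for G2/M against S, outside that range in both comparisons (-3.78 to 4.51 for S against G1).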
